A study of Mus musculus with 24 samples.

Results

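The Q20 line is a mouse embryonic stem cell (mESC) line that carries 1 knock-in huntingtin (Htt) allele with 20 CAG repeats beside a normal allele. Small RNA libraries of this line were compared between the stem cell state and the neural progenitor cell (NPC) state derived from it. Members were taken from the sample titles, which gave 2 Q20 NPC and 2 Q20 mESC libraries, or 4 of the 24 libraries in the series. The question was which stem cell RNAs persisted, and which neural RNAs appeared, after the Q20 cells had been taken through neural induction. The other 20 libraries, used as the reference for a full change of state, came from 5 further lines with 2 mESC and 2 NPC libraries each: wild type (WT), an Htt knockout (KO), and heterozygous knock-in lines named Q50, Q92 and Q111 after their CAG repeats. All mESC were grown with leukaemia inhibitory factor and serum on gelatin with irradiated mouse fibroblasts as feeders. All NPC had been induced in N2B27 medium and then expanded on laminin with FGF and EGF, and their RNA was extracted with TRIzol. Each genotype was represented by 1 line, so an effect of the genotype and a property of the line cannot be told apart. The series' design text calls the 2 libraries of a group biological samples.

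Stem cells of the mouse carry a small set of microRNAs that are nearly absent from other tissues, chiefly the Mir290 to Mir295 cluster of the naive state and the Mir302 and Mir367 cluster of the primed, epiblast-like state. A microRNA recognises its targets through its seed, and many members of both clusters share a seed that targets inhibitors of the cell cycle. The imprinted Dlk1-Dio3 region is a second hallmark of full developmental potential: its maternal chromosome makes the long noncoding RNAs Meg3, Rian and Mirg, and many C/D box small nucleolar RNAs (snoRNAs) and microRNAs are cut from transcripts of this strand. In neural progenitors the stem cell microRNAs give way to neural microRNAs such as miR-9, miR-181a and let-7. LIN28A, a stem cell RNA-binding protein, blocks the maturation of let-7.

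The mature sequences of the microRNAs on which the results turn are shown to make the shared seeds visible. They are RefSeq sequences (GRCm38.p6), 5′ to 3′, with the seed (bases 2 to 8) in capitals. The counts belong to the whole hairpin gene, so the arm that gave the reads is not known.
miR-302b-3p: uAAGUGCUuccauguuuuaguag
miR-291a-3p: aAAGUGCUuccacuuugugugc
miR-295-3p: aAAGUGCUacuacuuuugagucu
miR-292a-5p: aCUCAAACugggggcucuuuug
miR-293-5p: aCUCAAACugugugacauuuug
miR-293-3p: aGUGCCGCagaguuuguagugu
miR-106a-5p: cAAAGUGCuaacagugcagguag
miR-20b-5p: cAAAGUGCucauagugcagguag
miR-181a-5p: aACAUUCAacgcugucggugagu
miR-9-5p: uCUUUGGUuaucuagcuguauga
let-7c-5p: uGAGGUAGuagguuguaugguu
The first 3 share the stem cell seed AAGUGCU, and miR-106a and miR-20b share AAAGUGC, the same letters moved by 1 base. The 5′ arms of miR-292a and miR-293 share CUCAAAC.

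C/D box snoRNAs are guides for the methylation of other RNAs, and are recognised by a C box near the 5′ end and a D box near the 3′ end. The exon sequences of 4 snoRNA genes of the region, annotated between Rian and Mirg and read from GRCm38 by their GENCODE M21 coordinates on the plus strand, are shown because they kept very different shares of their stem cell level. Capitals mark the letters TGATGA of a C box and CTGA of a D box.
AF357428 (chr12:109679945-109680013): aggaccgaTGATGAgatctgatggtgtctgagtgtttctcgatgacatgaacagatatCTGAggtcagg
AF357341 (chr12:109681519-109681593): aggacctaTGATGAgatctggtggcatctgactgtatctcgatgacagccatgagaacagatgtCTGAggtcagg
Gm25856 (chr12:109682994-109683068): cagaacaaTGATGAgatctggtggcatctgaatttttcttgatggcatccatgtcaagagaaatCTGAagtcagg
Gm25854 (chr12:109686798-109686869): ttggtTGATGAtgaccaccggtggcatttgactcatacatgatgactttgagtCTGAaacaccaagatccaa
All 8 snoRNA genes with counts between Meg3 and Mirg hold TGATGA followed by CTGA on the gene's strand, against 362 of 1507 (24.0%) of all annotated snoRNA genes. These matches describe the letters only.

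The libraries were shallow after gene assignment and consisted mostly of snoRNA reads. The Q20 mESC libraries held 1795879 and 1901042 counts, and the Q20 NPC libraries 480733 and 542008. Over the series the mESC libraries held 642384 to 2360434 counts and the NPC libraries 342022 to 682113, so a missing RNA is less visible in NPC. In mESC of each other line replicate 2 held fewer counts than replicate 1, for example 1027593 against 2281567 in WT. The 2 Q20 mESC libraries lacked this gap. A gene without counts in both Q20 NPC libraries could still lie at up to 2.47 CPM, the value of 3 counts over both; this floor and all intervals cover counting error only. CPM is the count per 1e6 of the library total after scaling by edgeR's TMM factors. The 2 libraries of each Q20 state differed by a chi-square of 2.02 (mESC) and 2.57 (NPC) per degree of freedom, more than sampling noise gives, while the other mESC pairs differed by 26.8 to 88.3. The other NPC pairs ran from 2.04 (Q92) to 39.6 (WT). Htt had 6 and 9 counts in Q20 mESC and 6 and 2 in Q20 NPC, too few to check a label. Of 55335 genes in the table, 904 had enough counts to be tested.

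In the fit of all 24 libraries with edgeR's quasi-likelihood test, 159 of the 904 genes (17.6%) differed between Q20 NPC and Q20 mESC at a Benjamini-Hochberg adjusted p under 0.05. Of these 101 (11.2%) were higher in NPC and 58 (6.42%) lower. A second fit asked whether the change in Q20 differed from the change shared by the other 5 lines. It called 23 genes (2.54%), of which 21 (2.32%) ended higher in Q20 than that change predicts and 2 (0.221%) lower. Of the 23 genes, 9 were also called lower in Q20 NPC than in Q20 mESC, 0 were called higher, and 14 were not called in that comparison. Most of these came from a single place: 12 of the 21 lie between Meg3 and Mirg, where 17 genes were tested, and 3 of the 21 belong to the stem cell microRNA list, of which 7 were tested.

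The stem cell microRNAs were lower in Q20 NPC but remained in reach of counting, whereas the NPC of the other lines had almost none. The list holds 14 genes: those of Mir290 to Mir295, Mir302a to Mir302d, and Mir367. Their summed counts were 3575 and 4289 in Q20 mESC and 201 and 233 in Q20 NPC. Both NPC libraries lay below both mESC libraries, at 357 ± 11.8 CPM (SD, n = 2) against 2693 ± 183 CPM. Taking the counts of both libraries of a state together, Q20 NPC kept 13.2% of the mESC level (95% exact conditional interval 12.0 to 14.6%). The other 10 NPC libraries held 1 such count in all, between 0 and 2.29 CPM, or 0.0101% (interval 2.57e-04 to 0.0566%) of their mESC level. Of the 7 genes tested, 4 fell in Q20, 0 rose and 3 did not pass; 6.42% of all tested genes fell. These 7 passed the count filter mainly through the mESC libraries, where they are high, so the count describes them alone and is not read against that share. Without the filter 5 of 12 fell, and without either Q20 NPC library 2 of 7. Their median log2 change was -3.86, beside 0.25 over all 904 genes. In the other lines it was -8.89 as fitted and -6.93 with genes that had no NPC counts set at the bound given by the floor.

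The 2 clusters of the list behaved differently in Q20. The Mir290 to Mir295 cluster (chr7, 9 listed genes) summed to 2465 and 3107 counts in Q20 mESC and to 65 and 79 in Q20 NPC. Its level fell from 1906 ± 196 to 118 ± 7.85 CPM (n = 2 each), or 6.20% (5.22 to 7.31%) of the stem cell level, and no other NPC library held a count of it. In mESC the Q20 libraries lay inside the range of the other lines, 1076 to 3650 CPM. In mESC of each other line replicate 2 was higher than replicate 1, for example 1076 and 1753 CPM (replicates 1 and 2) in Q111. In Q50 the values were 1155 and 2970 CPM. The Q20 mESC replicates stood closer, at 1767 and 2045 CPM. The part of this replicate pattern in the differences between Q20 and the other lines was not tested.
Mir293, which gives the pair of arms shown above, had 1647 and 2102 counts in Q20 mESC and 51 and 56 in Q20 NPC, with no overlap. It fell by 3.86 on the log2 scale (SE 0.44, adjusted p = 1.82e-05), to 6.84% of its mESC level. In the other 10 NPC libraries it had 0 counts, which puts it at least 2035-fold lower there than in their mESC. Of all 904 genes it had the smallest p for the difference between Q20 and the other lines (log2 9.50, SE 0.82, adjusted p = 1.58e-07); this fitted size depends on the prior count of the fit, since the other NPC are at 0.
Mir292 had 663 and 829 counts in Q20 mESC and 9 and 19 in Q20 NPC. Its decrease of 4.48 (SE 0.93, adjusted p = 0.00300) was called, and so was its difference from the other lines (log2 7.93, SE 1.51, adjusted p = 0.00250), where it was at least 921-fold lower. Without Q20 NPC replicate 1 the decrease of Mir292 did not pass (adjusted p = 0.056).
Mir291a (40, 44, 1 and 1 counts, mESC then NPC) and Mir295 (104, 108, 2 and 1) fell by 4.03 (adjusted p = 0.00417) and 4.81 (adjusted p = 0.00991), with differences from the other lines that did not pass (adjusted p = 0.356 and 0.414). At 1 or 2 counts in a library, their Q20 NPC levels cannot be set apart from those of the other NPC at this depth. Without Q20 NPC replicate 1 or without replicate 2, 2 of the 7 genes of the whole list were called lower in place of 4. Without knowledge of the counted strand, reads of these hairpins and of the Nlrp12 exon on the other strand of the same DNA cannot be separated.

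The Mir302 and Mir367 cluster (chr3, 5 genes) kept more of its level and was already high in Q20 stem cells. Its counts summed to 1110 and 1182 in Q20 mESC and 136 and 154 in Q20 NPC, or 787 ± 12.7 and 238 ± 3.91 CPM (n = 2 each), so 30.3% (26.8 to 34.3%) remained. The other mESC libraries held 2.09 to 138 CPM, with a median of 35.2, all below both Q20 mESC libraries and also below both Q20 NPC libraries. Most of the cluster's counts were Mir302b, which bears the stem cell seed: 1049 and 1122 counts in mESC, 123 and 138 in NPC. Its log2 change of -1.79 (SE 0.66) did not pass in Q20 (adjusted p = 0.0661), while its difference from the other lines did (log2 5.02, SE 0.97, adjusted p = 0.00146). Mir367 had 35 and 33 counts in mESC and 8 and 8 in NPC, against 0 counts in all 10 other NPC libraries, and passed neither test. Mir302a (16, 8, 2 and 5 counts) and Mir302c (7, 15, 2 and 2) were not tested. Scaled for depth, the Q20 states overlapped for Mir302a, which kept 69.9% (25.5 to 167%), and Mir302c kept 43.6% (10.9 to 128%). Neither had a count in another NPC library. The high starting level touches the comparison with the other lines: the Q20 change starts from a different stem cell level, and its part in the difference was not tested.

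**Figure D1:**
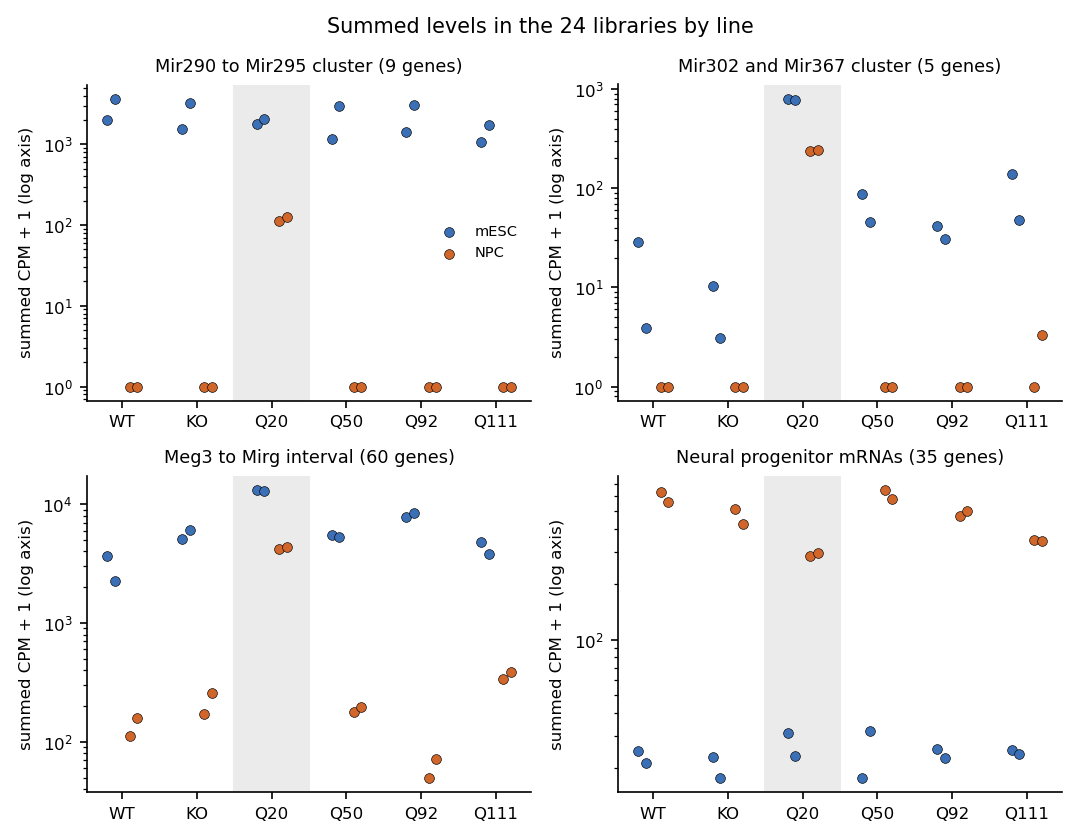
Summed CPM plus 1 of the Mir290 to Mir295 cluster, the Mir302 and Mir367 cluster, the Meg3 to Mirg interval and the neural progenitor mRNAs, 1 panel each, on logarithmic axes. Each point is 1 of the 24 libraries, blue for mESC and orange for NPC, by line, with Q20 shaded. The Q20 NPC libraries average 118, 238 and 4259 CPM for the first 3 groups, above every other NPC library, and 288 CPM for the neural progenitor mRNAs, below every other NPC library.

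The cell cycle clusters, microRNAs related to Mir17 and Mir92, are shared by stem cells and many dividing cells. The list holds 15 genes, of which 7 had counts in Q20. The sums were 247 and 268 counts in Q20 mESC and 20 and 25 in Q20 NPC, or 21.0% (15.1 to 28.4%) of the mESC level, against 6.54% (4.39 to 9.38%) in the other lines. Of 4 genes tested, 3 fell in Q20, beside 6.42% of all tested genes. These 4, too, passed the count filter mainly through the mESC libraries, so the count describes them alone and is not read against that share. Under scaling by library totals, or with DESeq2, 1 of the 4 was called, and with any of the 4 Q20 libraries left out 0 or 1.
Mir106a, from the X-linked member of these clusters, had 143 and 128 counts in Q20 mESC and 7 and 10 in Q20 NPC, and fell by 2.73 (SE 0.66, adjusted p = 0.00771). Its neighbour Mir20b had 53, 60, 5 and 8 counts and fell by 1.85 (SE 0.60, adjusted p = 0.0399). Neither had a count in any other NPC library, where they were at least 62.1-fold and 33.4-fold lower than in mESC. Both differed from the other lines, by 5.45 (adjusted p = 0.0115) and 5.40 (adjusted p = 0.00755) on the log2 scale. Without Q20 NPC replicate 2 neither of these differences was called.

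The messenger RNAs of pluripotency were sampled thinly, as fragments in small RNA libraries. The list holds 24 genes, 23 of which had a count in Q20 mESC and 8 in Q20 NPC. Summed counts were 151 and 229 in Q20 mESC and 22 and 25 in Q20 NPC, or 129 ± 30.01 and 38.6 ± 0.731 CPM (n = 2 each). The sum kept 29.7% (21.4 to 40.2%) of the mESC level, against 4.40% (3.05 to 6.13%) in the other lines, whose NPC libraries held 0 to 18.2 CPM, all below both Q20 NPC libraries. Only Trim71 and Tet1 had enough counts to be tested, and neither was called. Trim71, an RNA-binding protein of stem cells and a let-7 target, had 20 and 31 counts in mESC and 6 and 8 in NPC (log2 change -0.59, SE 0.60, adjusted p = 0.530), and its difference from the other lines was 2.66 (adjusted p = 0.0696). Tet1, a DNA demethylase, had 39, 40, 6 and 6 counts (log2 change -1.44, SE 0.65, adjusted p = 0.134).
Lin28a had 5 and 11 counts in Q20 mESC and 5 and 6 in Q20 NPC, or 5.41 ± 2.58 and 9.03 ± 0.519 CPM (n = 2 each), so the NPC level was 165% (69.2 to 378%) of the mESC level. No other NPC library held a count of Lin28a. Pou5f1, the core pluripotency factor OCT4, had 4, 11, 1 and 1 counts, and Sall4, its partner factor, had 4, 12, 2 and 2, again with 0 counts in all other NPC libraries. At 1 count in each library, the Q20 NPC level of Pou5f1 cannot be set apart from that of the other NPC at this depth. The naive-state genes Nanog (4 and 9 counts in mESC), Zfp42 (6 and 11), Esrrb (3 and 8) and Klf2 (6 and 12) had no counts in Q20 NPC. Listed genes not named for the naive state had none either: Tdgf1 (5 and 17 counts in mESC), Mycn (15 and 6) and Fgf4 (9 and 4). A loss particular to naive-state genes is therefore not shown. In all, 16 of the 24 genes had none in either Q20 NPC library. At this depth 0 counts in NPC show only that Zfp42 was at least 2.36-fold and Nanog at least 1.81-fold lower than in mESC.

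Noncoding RNAs of the Dlk1-Dio3 region were 12 of the 21 genes called higher in Q20 than the change of the other lines predicts. Between the start of Meg3 and the end of Mirg (chr12:109541001-109749460), 60 annotated genes had a count. They summed to 18218 and 19428 counts in Q20 mESC and to 2413 and 2768 in Q20 NPC, or 12923 ± 195 and 4259 ± 109 CPM (n = 2 each). Q20 mESC thus started above all 10 other mESC libraries (2240 to 8357 CPM), and Q20 NPC ended above all 10 other NPC libraries (48.6 to 384 CPM). The share kept was 33.0% (32.1 to 34.0%) in Q20 and 3.38% (3.15 to 3.61%) in the other lines. Of the 17 genes tested in Q20, 7 fell (6.42% of all tested genes did), 0 rose and 10 did not pass. These 17 passed the count filter mainly through the mESC libraries, so the 7 that fell are not read against that share. Under scaling by library totals 4 fell, and with one of the Q20 libraries left out 2 to 4 fell. For the difference from the other lines, 12 of the 17 were called, all towards a higher level in Q20, beside 2.32% of all tested genes. The 17 are neighbours, and many are cut from shared transcripts, so they are not independent. The 12 therefore describe the region alone and are not read against that share either. The part of the higher Q20 mESC level in these differences was not tested. That count was 11 to 13 under the other scalings and 8 to 11 with a Q20 library left out. The median log2 change of the 17 was -1.64 in Q20 and -6.07 in the other lines (-5.00 with genes at no counts set at their bound).

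Among the long host transcripts, Rian fell in Q20 and Mirg did not pass. Rian, known as a host of C/D snoRNAs, had 4674 and 4849 counts in Q20 mESC and 601 and 677 in Q20 NPC, a decrease of 1.64 (SE 0.38, adjusted p = 0.00440). It kept 32.2% (30.3 to 34.1%), against 6.07% in the other lines, and its difference from them fell short of the threshold (log2 2.25, SE 0.64, adjusted p = 0.0539). Mirg, host of the distal microRNAs, had 86, 138, 7 and 12 counts and kept 20.3% (12.0 to 32.5%). Meg3 itself was seen in 7 and 10 counts in mESC and 2 and 2 in NPC. The annotated exons of Rian and Mirg hold small RNA genes on the same strand, so some of these reads may be those of the small RNAs.
Individual snoRNAs, most of them annotated between Rian and Mirg, ranged widely in what they kept. AF357428 had 1873 and 2211 counts in Q20 mESC and 513 and 551 in Q20 NPC, and AF357341 had 2548, 2975, 542 and 591. They kept 62.5% (58.3 to 66.9%) and 49.2% (46.1 to 52.5%), and neither decrease was called (adjusted p = 0.245 and 0.249).
At the other end, Gm25854 had 1363 and 1403 counts in mESC and 46 and 84 in NPC, and Gm25856 had 1878, 1927, 143 and 159. They kept 11.3% (9.38 to 13.4%) and 19.0% (16.9 to 21.4%), and fell by 3.17 (SE 0.57, adjusted p = 7.44e-04) and 2.39 (SE 0.52, adjusted p = 0.00300). The intervals of these 4 snoRNAs do not overlap, so these neighbouring snoRNAs changed by unequal amounts beyond counting error.
The rest of the tested snoRNAs lay between: Gm22981 (3396, 3362, 213 and 301 counts) kept 18.2%, Gm23787 (1414, 1537, 172 and 220) 31.9%, Gm24564 (165, 159, 32 and 23) 40.7% and Gm23736 (57, 49, 18 and 19) 83.7%. Gm23736 and Gm22981 share 69.6% of their 30-base stretches, so reads may be split between them. In the other lines the same 8 snoRNAs kept between 0.640% (Gm25856) and 7.00% (AF357428). All 8 were called for the difference from the other lines, by 3.40 (AF357428, adjusted p = 0.00184) to 5.26 (Gm24564, adjusted p = 2.28e-04) on the log2 scale.

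The microRNAs of the region followed the same order. The list of 49 genes summed to 719 and 778 counts in Q20 mESC and 121 and 124 in Q20 NPC, and kept 39.2% (34.1 to 45.0%), against 1.52% (0.848 to 2.51%) in the other lines. All 10 other NPC libraries (0 to 10.4 CPM) lay below both Q20 NPC libraries (202 ± 10.9 CPM, n = 2). Of the 49, 24 had a count in Q20 NPC, and 40 had none in any other NPC library. Of the 7 tested, 2 fell in Q20, Mir127 and Mir379, where 6.42% of all tested genes fell. For the difference 4 were called, all towards a higher level in Q20, beside 2.32% of all tested genes. These 7 passed the count filter mainly through the mESC libraries, so the counts describe them alone and are not read against those shares. Scaled by library totals, or with any Q20 library left out, 0 of the 7 fell.
Mir341, cut from the Rian region, had 214 and 231 counts in Q20 mESC and 39 and 47 in Q20 NPC. It kept 46.4% (36.4 to 58.5%), with a change of -1.11 that did not pass (adjusted p = 0.121), while 8 of the other 10 NPC libraries had none. Its difference from the other lines was 5.84 (SE 0.74, adjusted p = 4.41e-06).
Mir409 (68, 88, 12 and 20 counts) and Mir541 (67, 55, 9 and 11), from the distal cluster, kept 49.2% and 39.3%, with differences of 6.15 (adjusted p = 2.28e-04) and 3.33 (adjusted p = 0.0360). Mir127, which lies antisense to the imprinted gene Rtl1, had 73, 95, 14 and 12 counts, fell by 1.41 (SE 0.48, adjusted p = 0.0462) and differed by 4.59 (adjusted p = 3.05e-04). Mir379, the first hairpin of the distal cluster, had 37, 35, 2 and 0 counts, fell by 3.80 (adjusted p = 0.0271) and did not differ from the other lines by the test (adjusted p = 0.734). Mir127 and Mir409 each lie on the DNA of a gene on the other strand, Rtl1 and Gm24321, from which their reads cannot be told apart without the counted strand.

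**Figure D2:**
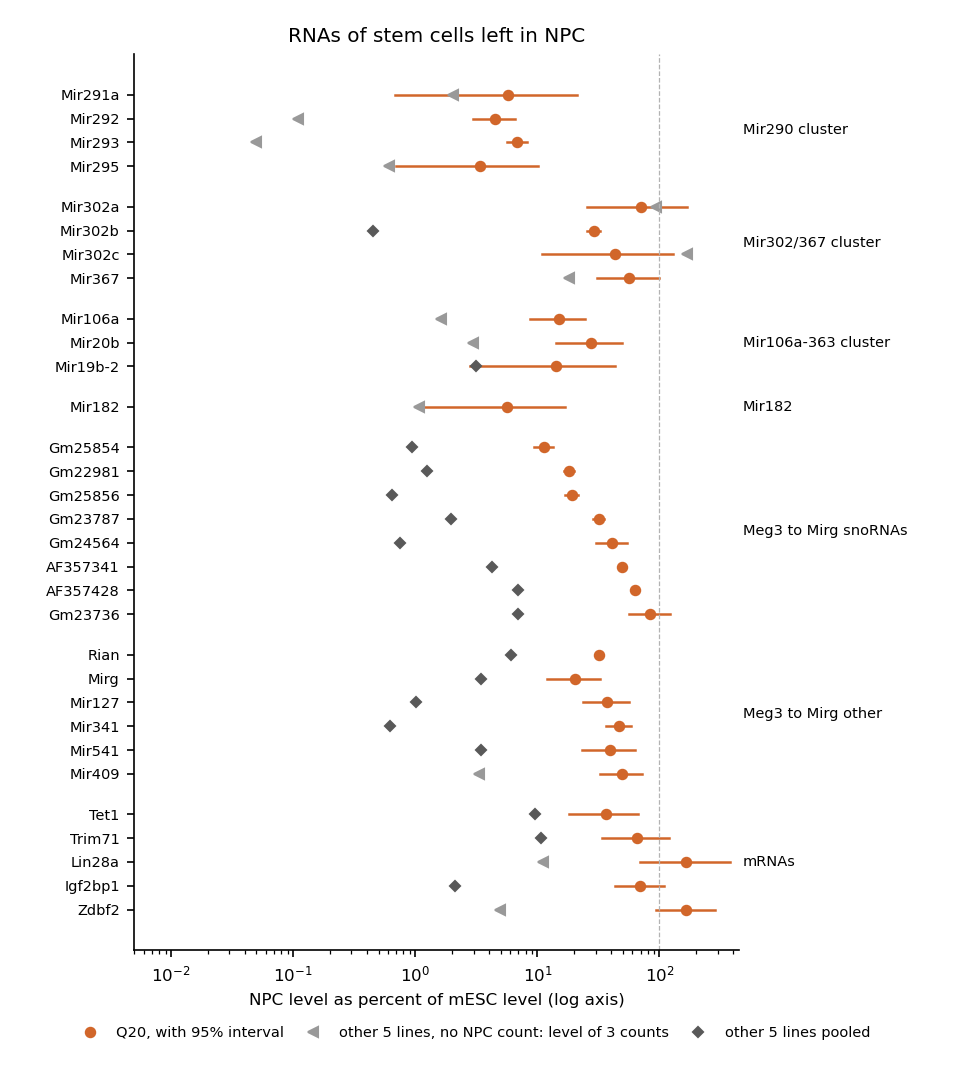
NPC level as a percent of the mESC level, on a logarithmic axis, for stem cell RNAs and RNAs of the Meg3 to Mirg interval. Orange points are Q20 with exact 95% intervals for counting error, diamonds the other 5 lines pooled, and triangles the level that 3 counts would give where those lines had no NPC count. The Q20 snoRNAs run from 11.3% (Gm25854) to 83.7% (Gm23736) and all lie to the right of their diamonds, while for Mir302a and Mir302c the triangle lies at or beyond the Q20 value, so that no difference is visible at this depth.

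Stem cell RNAs outside these groups were also kept. Zdbf2, an imprinted gene, had 18 and 17 counts in Q20 mESC and 14 and 10 in Q20 NPC, or 12.0 ± 1.21 and 20.0 ± 6.08 CPM (n = 2 each). None of the other 10 NPC libraries held a count of it, at least 20.3-fold lower than in their mESC, and its difference was called (log2 7.24, SE 0.95, adjusted p = 5.94e-05). Igf2bp1, an RNA-binding protein of embryonic tissues, had 43 and 47 counts in mESC and 11 and 15 in NPC and kept 69.3% (43.0 to 108%), against 2.13% in the other lines (difference 4.65, SE 0.70, adjusted p = 5.95e-05). Others did fall in Q20. Mir182, a microRNA of sensory and stem cells, had 63, 64, 1 and 2 counts and fell by 4.08 (SE 0.84, adjusted p = 0.00289). It kept 5.67% (1.15 to 16.9%) of its mESC level in Q20. None of the other 10 NPC libraries held a count of Mir182, at least 93.1-fold lower than in their mESC. Secisbp2, a selenoprotein synthesis factor, had 114, 100, 1 and 2 and fell by 4.83 (SE 0.92, adjusted p = 0.00103). For neither did the test show a difference from the other lines (adjusted p = 0.145 and 0.778).

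To describe how complete the change was without using the Q20 libraries in the choice of genes, sets were drawn from the other 5 lines alone. In these, 66 genes were higher in mESC and 119 higher in NPC by a log2 change of at least 2 and an adjusted p under 0.05. For the 66 mESC-high genes the median log2 change was -1.82 in Q20 against -3.98 in the lines that chose them, and 32 of the 66 were called lower in Q20, where 6.42% of all tested genes were. That count was 19 and 20 without Q20 mESC replicate 1 or 2, 10 and 9 without Q20 NPC replicate 1 or 2, and 20 under library totals. Of the 66, 56 changed less in Q20 than elsewhere, 51 kept over 10% of their mESC level, and 5 had no count in Q20 NPC. These 5, picked here after their values were seen, were Mir183, Mir142, Lncenc1, Tmem44 and Alpl.
Sets were also drawn with each other line held out in turn, as a rough scale for the Q20 value. The lines that chose those sets included Q20. Their own mESC-high medians were -2.93 (set without Q92) to -3.24 (set without Q50), against -3.98 for the Q20 set, so the sets differ in strength. In the line held out, the median ran from -3.41 (Q111) to -4.82 (Q50). There 24 to 32 genes of 62 to 66 kept over 10%, and 18 to 25 had no count in NPC. Part of that gap comes from genes at 0, whose fitted change has no bound: with such genes set at the bound from the floor, the Q20 median was -1.79 and the others ran from -2.57 (Q111) to -3.14 (Q92). The 16 genes of the set inside the Meg3 to Mirg interval had a median of -1.53 in Q20 and -6.07 in the other lines. Outside the interval, 50 genes gave -1.86 and -3.09.

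**Figure D3:**
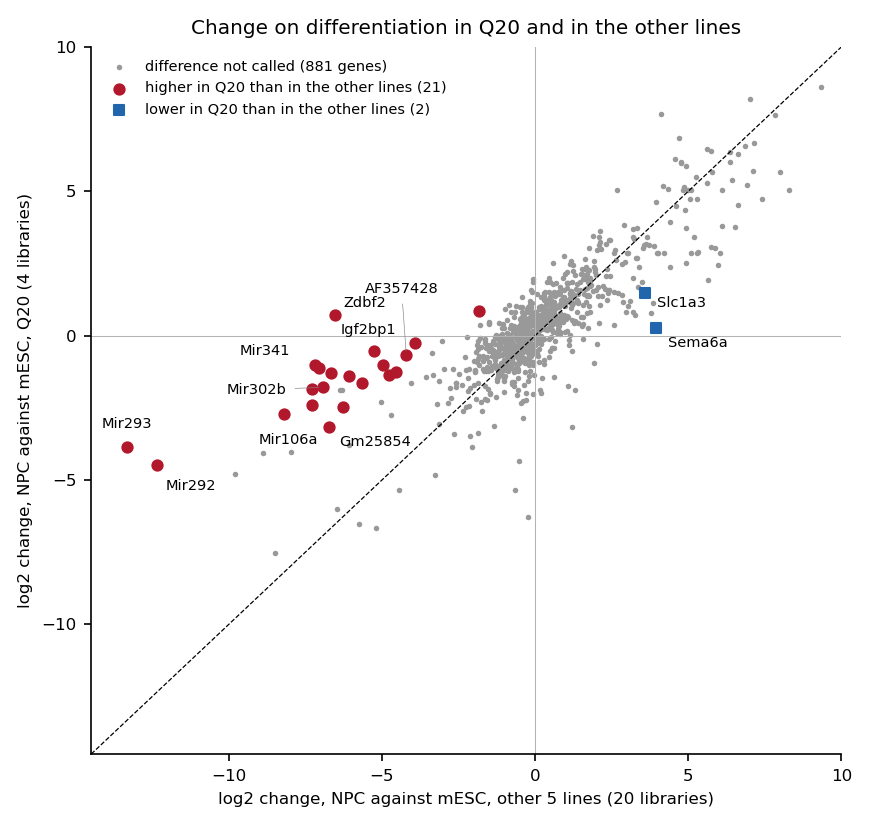
Fitted log2 change from mESC to NPC in Q20 (vertical) against the other 5 lines (horizontal), 1 point for each of the 904 tested genes, with the dashed line at equal change. Red circles are the 21 genes called higher in Q20 than the change of the other lines predicts and blue squares the 2 called lower. The red points spread to the left, where fitted values of genes at 0 counts have no bound, with Mir293 at -3.86 in Q20.

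Neural RNAs appeared in Q20 NPC, several of them from no counts in mESC. The neural microRNA list of 22 genes summed to 0 and 2 counts in Q20 mESC and to 60 and 65 in Q20 NPC, or 103 ± 1.53 CPM (n = 2). Every other NPC library was higher, at 141 to 858 CPM with a median of 289. All 4 genes tested rose in Q20, and none differed from the other lines by the test. Genes of this kind pass the count filter only through the groups where they are high, so the count describes those 4 alone, and 13 of the 22 had no count in Q20.
Mir181a-1 had 0 and 0 counts in Q20 mESC and 32 and 29 in Q20 NPC, at least 48.8-fold higher (adjusted p = 1.82e-05). Its level of 50.4 ± 7.09 CPM (n = 2) lay below all 10 other NPC libraries (85.1 to 613 CPM). Mir181a-2 had 0, 0, 6 and 10 counts, at least 12.8-fold higher (adjusted p = 3.31e-04), and was also below all 10 (24.3 to 141 CPM). Reads of both give the same mature miR-181a, and Mir181a-1 also lies in an exon of A430106G13Rik.
Mir9-3, 1 of the genes for miR-9, a microRNA of neural progenitors, had 0, 0, 15 and 17 counts, at least 25.6-fold higher (adjusted p = 3.49e-05). At 26.3 ± 0.448 CPM (n = 2) it stood inside the range of the other NPC libraries (13.0 to 36.6 CPM), above 8 of the 10. Mir9-1, another gene for miR-9 picked after its values were seen, stood at 1.73 and 4.70 CPM in Q20 NPC. Mir9-1 thus lay below all 10 other NPC libraries (9.28 to 45.0 CPM).
The let-7 family (12 genes) stayed sparse, with 1 and 1 counts in Q20 mESC and 5 and 9 in Q20 NPC. Its level of 11.4 ± 3.84 CPM (n = 2) lay below all 10 other NPC libraries (22.4 to 104 CPM). The 1 tested gene, Mirlet7c-1, named after its values were seen, had 0, 0, 2 and 6 counts. It was called higher, and the call was lost without Q20 mESC replicate 1, Q20 mESC replicate 2 or Q20 NPC replicate 2, and without the filter. Its difference from the other lines, which held 17.0 to 64.7 CPM in NPC, was not called.

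Messenger RNAs of neural progenitors appeared in Q20 NPC at a summed level under that of every other NPC library. The list of 35 genes summed to 42 and 34 counts in Q20 mESC and 163 and 187 in Q20 NPC, or 26.2 ± 5.47 and 288 ± 7.38 CPM (n = 2 each). All 10 other NPC libraries lay above, at 341 to 645 CPM. The NPC sum was 1104% (860 to 1435%) of the mESC sum in Q20, and 2303% (2046 to 2601%) in the other lines. Of 17 genes tested, 12 rose, 0 fell and 5 did not pass; 11.2% of all tested genes rose. These genes, too, passed the filter mainly through the NPC libraries, where they are high, so the count describes the 17 alone and is not read against that share. With a Q20 library left out 6 to 9 of the 17 rose, and without the filter on low counts 6 of 35. Their median log2 change was 5.03 in Q20 and 5.79 elsewhere (2.68 and 5.79 with genes at 0 set at their bound, since 8 of the 17 had no counts in the 2 Q20 mESC libraries). The test of the difference called 1 of the 17, Slc1a3.
Fabp7, the brain lipid binding protein of radial glia, had 0 and 0 counts in Q20 mESC and 20 and 11 in Q20 NPC, at least 24.8-fold higher (adjusted p = 5.18e-05). The proteoglycan-like phosphatase Ptprz1 had 0, 0, 17 and 30 counts, at least 37.6-fold higher (adjusted p = 1.94e-05). Its ligand Ptn, a growth factor, had 1, 0, 12 and 9 and rose by 5.21 (SE 1.02, adjusted p = 0.00222). The matrix proteoglycan Ncan had 1, 0, 8 and 16 and rose by 5.38 (SE 1.08, adjusted p = 0.00222). In each of these 4 genes the Q20 libraries of the 2 states did not overlap, and the Q20 NPC mean lay under the median of the other NPC libraries for Fabp7 and Ptprz1 and above it for Ptn and Ncan.
Other members rose from a few mESC counts. Vim, the intermediate filament of progenitors, had 3, 5, 16 and 14 counts and rose by 3.12 (SE 0.70, adjusted p = 0.00360). The receptor Notch1 had 3, 5, 6 and 11 and rose by 2.29 (SE 0.76, adjusted p = 0.0386), and the gliogenic factor Nfib had 1, 2, 4 and 6 and rose by 2.85 (SE 0.86, adjusted p = 0.0239). Hes5, the Notch target, was not tested and had 0, 0, 8 and 8 counts, at least 12.8-fold higher and above all 10 other NPC libraries (0 to 12.0 CPM).
Nes, the filament protein most used to mark neural progenitors, did not pass. It had 5 and 3 counts in Q20 mESC and 3 and 3 in Q20 NPC, or 2.78 ± 1.14 and 4.95 ± 0.354 CPM (n = 2 each). Its log2 change of 0.81 (SE 0.88) did not pass (adjusted p = 0.559), and neither did its difference from the other lines (-2.50, adjusted p = 0.471). Of the other 10 NPC libraries, 8 were above both Q20 NPC libraries. Tnc, a matrix protein of radial glia picked after its values were seen, had 0, 0, 2 and 3 counts, against 13.7 to 71.2 CPM in the other NPC libraries, and its rise was called (log2 5.03, adjusted p = 0.00652).
Slc1a3, the glutamate transporter of radial glia, had 20 and 12 counts in Q20 mESC and 20 and 18 in Q20 NPC. At 31.4 ± 4.57 CPM (n = 2) in NPC it was below all 10 other NPC libraries (41.0 to 183 CPM), and at 11.1 ± 4.56 CPM in mESC its mean was above the highest other mESC library (9.98 CPM). Its rise did not pass in Q20 (1.49, SE 0.54, adjusted p = 0.0580), and its difference from the other lines was called (-2.24, SE 0.58, adjusted p = 0.0257), but not without Q20 mESC replicate 1, either Q20 NPC library or the Q111 line, nor under library totals or without the filter. Sema6a, a guidance protein chosen by the rank of its difference, had 5, 9, 4 and 3 counts and a difference of -3.80 (SE 0.93, adjusted p = 0.0156), which was lost without Q20 mESC replicate 2, either Q20 NPC library or the Q92 line, and again under library totals or without the filter. In Q20 mESC Sema6a stood at 3.58 and 5.92 CPM, above all 10 other mESC libraries (at most 1.41 CPM). Its Q20 NPC level of 5.82 ± 1.58 CPM (n = 2) lay inside the range of the other NPC libraries (2.29 to 17.0 CPM). The part of the high starting level in its difference was not tested.
Outside the list, the RNA-binding protein gene Qk, a regulator of glial splicing, had 11, 12, 35 and 44 counts and rose by 3.02 (SE 0.47, adjusted p = 1.48e-04). The transcription factor Tcf4 had 4, 3, 22 and 18 and rose by 3.71 (SE 0.59, adjusted p = 1.69e-04). Both reached the range of the other NPC libraries.

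**Figure D4:**
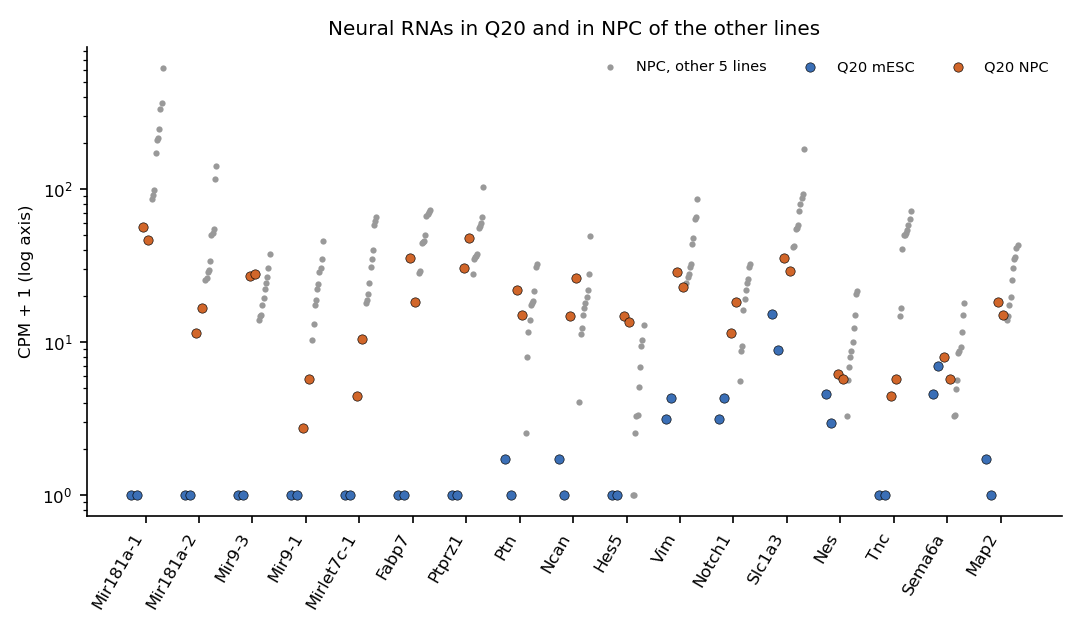
CPM plus 1, on a logarithmic axis, of single neural RNAs in the 2 Q20 mESC libraries (blue), the 2 Q20 NPC libraries (orange) and the 10 other NPC libraries (grey, sorted by value), each point 1 library. In Q20 NPC, Mir181a-1 at 50.4 CPM and Slc1a3 at 31.4 CPM lie below all other NPC libraries, while Mir9-3 at 26.3 CPM lies inside their range. Mir9-1, at 1.73 and 4.70 CPM in Q20 NPC, also lies below all other NPC libraries.

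For the 119 NPC-high genes of the other lines, the median log2 change in Q20 was 3.14 against 3.79, 65 were called higher in Q20, where 11.2% of all tested genes were, and 85 changed less. The count of 65 was 40 and 36 without Q20 mESC replicate 1 or 2, 46 and 42 without Q20 NPC replicate 1 or 2, and 29 without the filter on low counts. Both held-out sets were chosen for a large change in the other lines, so these counts are not read against the share of all genes. With each other line held out in turn, in sets whose choice included Q20, medians ran from 3.34 (Q111) to 4.43 (Q50). With genes at 0 set at their bound the Q20 median was 2.85 and the others ran from 2.91 (Q111) to 3.61 (Q50), so the Q111 line came close to Q20 on this side.

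Markers of other cells were few. Neuronal and glial genes (18) summed to 6 and 4 counts in Q20 mESC and 36 and 24 in Q20 NPC, or 50.0 ± 17.5 CPM (n = 2) beside 18.5 to 49.3 CPM in the other NPC libraries. Map2, a dendrite protein, rose (1, 0, 10 and 9 counts, log2 5.06, SE 0.95, adjusted p = 0.00112). Feeder fibroblast genes (18) gave 22, 31, 18 and 12 counts, or 18.1 ± 3.27 CPM in mESC and 25.0 ± 8.77 in NPC (n = 2 each), and 9 of the 18 had no count in Q20. The other NPC libraries held 5.19 to 25.4 CPM. The only gene tested over the 24 libraries, Fn1, was not called (15, 24, 4 and 1 counts, adjusted p = 0.154). Sparc, a matrix protein, had 4 and 5 counts in Q20 mESC and 7 and 7 in Q20 NPC, which is 373% (150 to 977%) of the mESC level and above all 10 other NPC libraries. A fit of the 4 Q20 libraries alone called 1 feeder gene higher, by 1.69 on the log2 scale. The part of fibroblast RNA in these results was not tested. Feeder microRNAs (14) gave 0, 3, 0 and 1 counts. All 24 markers of other germ layers and trophoblast were at 0 in both Q20 NPC libraries and in the other 10, after 5 and 8 summed counts in Q20 mESC. Of the 24, 18 had no count in any Q20 library. The interval for their summed Q20 NPC level reaches 78.7% of the mESC level, so these zeros show neither a loss nor an absence. In these bulk libraries a small share of cells left in the stem cell state and a lower level in every cell cannot be told apart.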

How the data were processed

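Small RNA libraries of 24 samples (12 groups of 2) had been sequenced as 50-base single reads, per the labels' protocols. The authors deposited raw counts per gene; per the submitters' processing notes CASAVA 1.8, STAR, HTSeq and GRCm38.p6 were used, while trimming, multiple hits and the strand counted are not given in the sources used here. The columns named for 89 repeats were matched to the samples titled Q92, the line for which the growth protocol gives 89 repeats. Of 55335 gene IDs, 55154 matched GENCODE M21 (181 unmatched, 57 counts). No row lacked a gene ID.

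Counts were fitted with edgeR 4.0.16 in R 4.3.3 (TMM scaling, filterByExpr with a minimum count of 10 and total of 15, quasi-likelihood test, Benjamini-Hochberg adjusted p under 0.05). The change in Q20 was a contrast of 12 group means over 24 libraries. The difference from the other lines was the interaction of Q20 with cell state beside terms for line and state. Alternatives used DESeq2 1.42.0 (limma 3.58.1 is loaded by edgeR). Percent kept is the ratio of pooled levels with an exact conditional interval. Library totals ran from 342022 to 2360434, and a floor is 3 counts over the group.

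Members and lists were chosen with earlier results of these data known. Named genes were, per direction, the 12 with the smallest p for the change in Q20 (adjusted p under 0.05, log2 change of at least 1, at least 10 CPM, no overlap), the 10 with the smallest p for the difference, and list members with at least 10 counts over the Q20 libraries; others are said to be picked after their values were seen. The values of some list members are not reported here. On simulated counts for these designs, 63.2% of 152 genes changed by a log2 of 2 were recovered for the change and 46.8% of 158 for the difference. Of the genes called, 5.9% and 3.9% were false, in fits of 651 and 628 genes. Each simulated gene had a single mean over all libraries, with changes put only into Q20 NPC. The simulation held no other change between states or lines, so these rates need not hold for the real counts.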

Additional observations from a re-analysis of the deposited data

Results flagged for a closer look

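The results here were singled out because the change in Q20 differed from the change in the other 5 lines by a test of that difference (edgeR's quasi-likelihood test, Benjamini-Hochberg adjusted p under 0.05). In all, 23 genes passed. The log2 differences, Q20 minus the other lines, of the 10 with the smallest p on the higher side were 9.50 for Mir293, 5.84 for Mir341, 7.24 for Zdbf2, 4.65 for Igf2bp1, 6.15 for Mir409, 5.26 for Gm24564, 4.59 for Mir127, 4.72 for Gm25856, 5.02 for Mir302b and 3.40 for AF357428. On the lower side there were 2, Sema6a at -3.80 and Slc1a3 at -2.24. In Mir293, Zdbf2 and Mir409 the other NPC libraries held no counts, so these sizes depend on the prior count of the fit and are no bounds. Sema6a rests on 5, 9, 4 and 3 counts in the Q20 libraries.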

How the results depend on the processing

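The count of 159 genes that changed in Q20 was 159 with DESeq2's size factors, 222 with library totals (193 higher, 29 lower, or 86.9% higher against 63.5%; the median log2 change of all genes moved from 0.25 to 0.83), 106 without the filter and 129 with DESeq2. It was 71 to 183 with 1 library left out: 80 and 81 without Q20 mESC replicate 1 or 2, and 71 and 79 without Q20 NPC replicate 1 or 2. A fit of the 4 Q20 libraries alone called 310 (149 higher, 161 lower) of 722 genes, and 258 and 266 without Q20 mESC replicate 1 or 2 and 222 and 232 without a Q20 NPC library (chosen after seeing the data); its dispersion rests on replicates that are closer than those of other lines (coefficient of variation 5.99% against 33.5%). MicroRNA genes alone gave 19 of 55. With a replicate block the count was 203, and 320 for the Q20 libraries alone; the replicate differences of mESC and NPC correlated at 0.056 in Q20, 0.168 to 0.178 in WT, KO and Q50, 0.0075 in Q92 and -0.005 in Q111, not all over 0.1, so the numbers were not taken as pairs. The block moved the called decreases from 7 to 10 in the interval and from 0 to 1 in the Mir302 and Mir367 cluster. The 23 genes of the difference were 20 to 29 under other settings (29 with the replicate block) and 15 to 26 with 1 library left out, the 15 being without Q20 NPC replicate 2. The share kept by the stem cell microRNAs, 13.2%, was 12.2% with DESeq2's size factors, 19.9% with library totals and 12.7 to 13.9% with 1 library left out; for the interval 33.0% became 30.5%, 49.7% and 32.4 to 33.6%. With sets drawn at a log2 change of 1 or 3, the mESC-high median in Q20 was -1.15 or -1.88 and the NPC-high median 2.14 or 3.78. Where no reason is given, the cause was not tested. Of the named genes' alternatives for the change in Q20, 844 kept the call and 1 did not; for the difference 407 and 12, the latter all of Sema6a and Slc1a3. No named gene reversed. Depth limits most single RNAs, above all mRNAs and microRNAs in NPC.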

Other observations

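RNA classes outside the lists of stem cell and neural genes also changed in Q20. The 3 Y RNA genes, small noncoding RNAs bound by the Ro protein, all rose. Rny1 had 11558 and 14200 counts in Q20 mESC and 128213 and 133691 in Q20 NPC, and rose by 4.61 on the log2 scale (SE 0.37, adjusted p = 1.30e-08, edgeR). The annotation class misc_RNA, to which it belongs, held 26.9% and 25.0% of the Q20 NPC counts, against 0.70% and 0.81% in mESC. Gm26168 (25, 26, 333 and 385 counts) rose by 5.06 and shares 38.5% of its 30-base stretches with Rny1, and Rny3 rose by 1.56. None of the 3 was called for a difference from the other lines, while their pooled NPC level was 2318% of the mESC level in Q20 and 1626% in the other lines. The differences between these pooled values, here and for the classes that follow, were not tested over samples. On the mitochondrial chromosome 20 genes were tested, of which 5 rose and 0 fell, beside 11.2% and 6.42% of all tested genes. For the difference 0 of the 20 were called, beside 2.54% of all tested genes and nothing is read from that 0. Pooled, the chromosome's NPC level was 337% (332 to 343%) of the mESC level in Q20 and 249% (247 to 251%) in the other lines. Both ribosomal RNAs were among the 5: mt-Rnr1 had 1366, 1397, 2820 and 3183 counts and rose by 2.38 (SE 0.37, adjusted p = 1.32e-04), and mt-Rnr2 had 3488, 4019, 6808 and 8519 and rose by 2.29 (SE 0.38, adjusted p = 2.51e-04).

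SnoRNAs outside the Meg3 to Mirg interval went mostly down where they changed. Of 107 tested in Q20, 18 fell and 5 rose, beside 6.42% and 11.2% of all tested genes. For the difference from the other lines 0 were called, beside 2.54% of all tested genes. Pooled, they kept 52.6% in Q20 and 65.0% in the other lines. Snord49a, with 272370 and 277593 counts in mESC and 38281 and 43703 in NPC, fell by 1.49 (SE 0.28, adjusted p = 0.00101), and Snord82 (70092, 77559, 8587 and 9815) fell by 1.74 (SE 0.30, adjusted p = 3.27e-04). Under library totals the median log2 change of all genes is 0.83 in place of 0.25, so these directions are relative to TMM scaling. Of the small Cajal body RNAs, 11 were tested, 3 rose and 1 fell.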
